A study of Mus musculus with 6 samples.

Results

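The genes described here are 34 genes known from megakaryocytes and platelets, out of 52550 genes listed in the table. The list as a whole was picked because platelet genes fell most from E16.5 to E18.5 in these same libraries. That difference is therefore given below as a description without a test. The symbols of the 34 genes were matched to the listed gene identifiers, and all 34 were found. The selection gave a list of genes and no numerical limit, so there are no genes just outside it to report.

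RNA was sequenced from liver cells of CD-1 mouse embryos of the genotype Sox9-GFP, in which green fluorescent protein reports the transcription factor SOX9, a marker of cholangiocytes, the epithelial cells of bile ducts. The 6 libraries form 2 groups of 3, replicates A, B and C of each stage, E16.5 and E18.5. The sample labels name the stages embryonic day 16 and 18. Each library came from a pool of 15 livers dissociated with collagenase IV and dispase. By the study's methods, blood cells carrying Ter119, CD11b, CD45R, CD5, Ly-6G/C or the 7/4 antigen were removed on magnetic beads, and GFP-positive cells were then sorted. None of these antigens is the product of one of the 34 genes. Both groups carry the reporter and went through the same steps. No group without the sort or the reporter is in the series, and stage, sort and library preparation cannot be told apart. Nothing in the sources says whether the pools of a stage were separate litters, so the spread between replicates may in part be technical.

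Megakaryocytes are the large polyploid cells that release platelets, and in the fetus they arise in the liver, which is then a main site of blood formation. Platelets carry alpha granules filled with chemokines and adhesive proteins, bind von Willebrand factor through the GPIb-IX-V complex, collagen through GPVI and fibrinogen through the integrin αIIbβ3, and release thromboxane and ADP that recruit further platelets. Their precursors depend on thrombopoietin, and the transcription factors GATA1, FOG1, FLI1, NF-E2 and GFI1B control much of the program. Cholangiocytes are not known as a source of most of these transcripts.

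The 34 genes lie on 16 chromosomes, with 6 on chromosome 11 and 5 on chromosome 6. Pf4 and Ppbp, which encode the platelet chemokines CXCL4 and CXCL7, are neighbours on chromosome 5 and are separated by 2371 bases. Because the 34 genes were seen to vary together (below), the DNA before their starts was read from RefSeq windows that run from 250 bases before to 50 bases after an annotated start (300 bases, genome build GRCm38.p6). The windows held 28 of the 34 genes with 30 starts. Bin2, Fli1, Itgb3, Nfe2, Thbs1 and Vwf had none. The following 5 are shown because they belong to the pair of chemokine neighbours, to 2 subunits of the von Willebrand factor receptor with several GATA words, and to the one gene of the 34 whose stages overlapped. They are written 5′ to 3′ on the strand of the gene, and capitals mark the words of the GATA family (AGATAA or AGATAG or TGATAA or TGATAG) and of the ETS family (CAGGAA or CCGGAA), searched on both strands.
Pf4, chr5:90772185-90772484, plus strand: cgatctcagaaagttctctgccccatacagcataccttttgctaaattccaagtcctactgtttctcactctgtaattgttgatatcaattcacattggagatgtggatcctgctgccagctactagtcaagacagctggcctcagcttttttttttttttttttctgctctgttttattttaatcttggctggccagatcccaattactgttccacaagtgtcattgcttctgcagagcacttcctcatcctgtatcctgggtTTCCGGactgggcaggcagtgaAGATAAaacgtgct
Ppbp, chr5:90768268-90768567, plus strand: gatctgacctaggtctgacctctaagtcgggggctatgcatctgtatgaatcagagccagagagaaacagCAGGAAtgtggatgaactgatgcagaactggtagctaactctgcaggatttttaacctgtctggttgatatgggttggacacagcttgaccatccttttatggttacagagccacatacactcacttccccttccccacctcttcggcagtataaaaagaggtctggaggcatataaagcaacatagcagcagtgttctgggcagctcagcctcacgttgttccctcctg
Gp1ba, chr11:70638872-70639171, plus strand: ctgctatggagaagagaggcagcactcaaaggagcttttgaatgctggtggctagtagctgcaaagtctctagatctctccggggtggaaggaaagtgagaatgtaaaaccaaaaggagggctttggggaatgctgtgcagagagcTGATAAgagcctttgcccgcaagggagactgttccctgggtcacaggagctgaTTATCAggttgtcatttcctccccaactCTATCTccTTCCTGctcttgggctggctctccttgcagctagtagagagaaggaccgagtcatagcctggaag
Gp5, chr16:30310732-30311031, minus strand: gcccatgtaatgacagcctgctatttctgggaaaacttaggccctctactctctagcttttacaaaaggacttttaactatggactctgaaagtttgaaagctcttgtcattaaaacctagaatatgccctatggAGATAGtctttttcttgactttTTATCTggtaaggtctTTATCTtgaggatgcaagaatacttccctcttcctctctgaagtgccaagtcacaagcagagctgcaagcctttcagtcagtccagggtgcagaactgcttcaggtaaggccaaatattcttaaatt
P2ry12, chr3:59262936-59263235, minus strand: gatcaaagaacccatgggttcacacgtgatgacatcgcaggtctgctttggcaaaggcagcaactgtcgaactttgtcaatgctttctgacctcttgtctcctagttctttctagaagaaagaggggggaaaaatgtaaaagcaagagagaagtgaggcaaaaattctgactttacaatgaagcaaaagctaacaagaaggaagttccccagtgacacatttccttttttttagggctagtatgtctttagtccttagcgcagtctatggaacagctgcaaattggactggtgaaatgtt
Distances from the start count its first base as 0. The Pf4 window held 1 ETS word from base 14 and 1 GATA word from base 36, both after the start. In the Ppbp window an ETS word began at base -180, and TATAAA, searched on the gene strand only, began at bases -30 and -8. Gp1ba held GATA words from bases -104, -51 and -23 and an ETS word from base -15, and Gp5 held GATA words from bases -115, -93 and -77. The P2ry12 window held none of the words searched.

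The shares of windows with a word were near those of all 32851 windows for the GATA and ETS families. A GATA word was present in 10 of the 30 windows (33.3%, against 29.8% of all windows) and an ETS word in 13 (43.3% against 41.4%). Both were present in 4 windows (13.3% against 11.4%), those of Pf4, Gp1ba, Mmrn1 and P2rx1. The Runx word TGTGGT was found in 3 windows (10% against 16.8%), and TATAAA in 3 (10% against 8.32%). The word TGANTCA, with any base at N, was found in 5 windows (16.7% against 7.81%), those of F2rl2, Gp1bb, Ppbp, Selp and Tbxas1. This word is looser than the core of NF-E2 and AP-1 sites, which has C or G at N. Among these windows only that of F2rl2 held the core, as TGAGTCA from base -54. The matches in the others were TGAATCA or TGATTCA, so the share of windows with the core itself is not given. A match is a string of letters and not a measured binding site, and the windows leave out distant regulatory DNA.

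The table gave TPM, a unit that divides reads by gene length and by the library total, so levels of different genes can be set side by side. Whole reads could be recovered from it, 13093937 to 26206374 per library, and every E18.5 library was shallower than every E16.5 library. In the 22452 genes tested, those that averaged 1 TPM or more, the median log2 fold change (E18.5 minus E16.5, on log2(TPM + 1)) was 0.42, and by limma with Benjamini-Hochberg adjusted p under 0.05, 5.22% of genes were lower and 26.0% higher at E18.5. Cholangiocyte markers were present beside hepatoblast transcripts. Sox9 ranged from 69.5 to 186 TPM at E16.5 and from 353 to 466 TPM at E18.5, while the hepatoblast transcript Alb stood between 30020 and 148100 TPM across the 6 libraries.

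The summed TPM of the 34 genes was 10350 in replicate A, 6043 in B and 16710 in C of E16.5, which is 1.04, 0.604 and 1.67% of each library. At E18.5 the sums were 336, 1456 and 599 TPM. Every E16.5 library was above every E18.5 library, and the highest sum of a stage was 2.77 times the lowest at E16.5 and 4.34 times at E18.5. Of the 34 genes, 33 were lower at E18.5 past the limma threshold, beside 5.22% of all genes tested, and the same 33 had no overlap between stages, beside 8.30% of all genes tested. Nothing is read from these counts, since the list was picked for the fall between stages. The median log2 fold change was -3.70, with a range from -4.90 to -0.47, and without E18.5 replicate B the median was -4.12. In bulk samples, fewer cells of a type and less RNA per cell cannot be told apart.

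**Figure D1:**
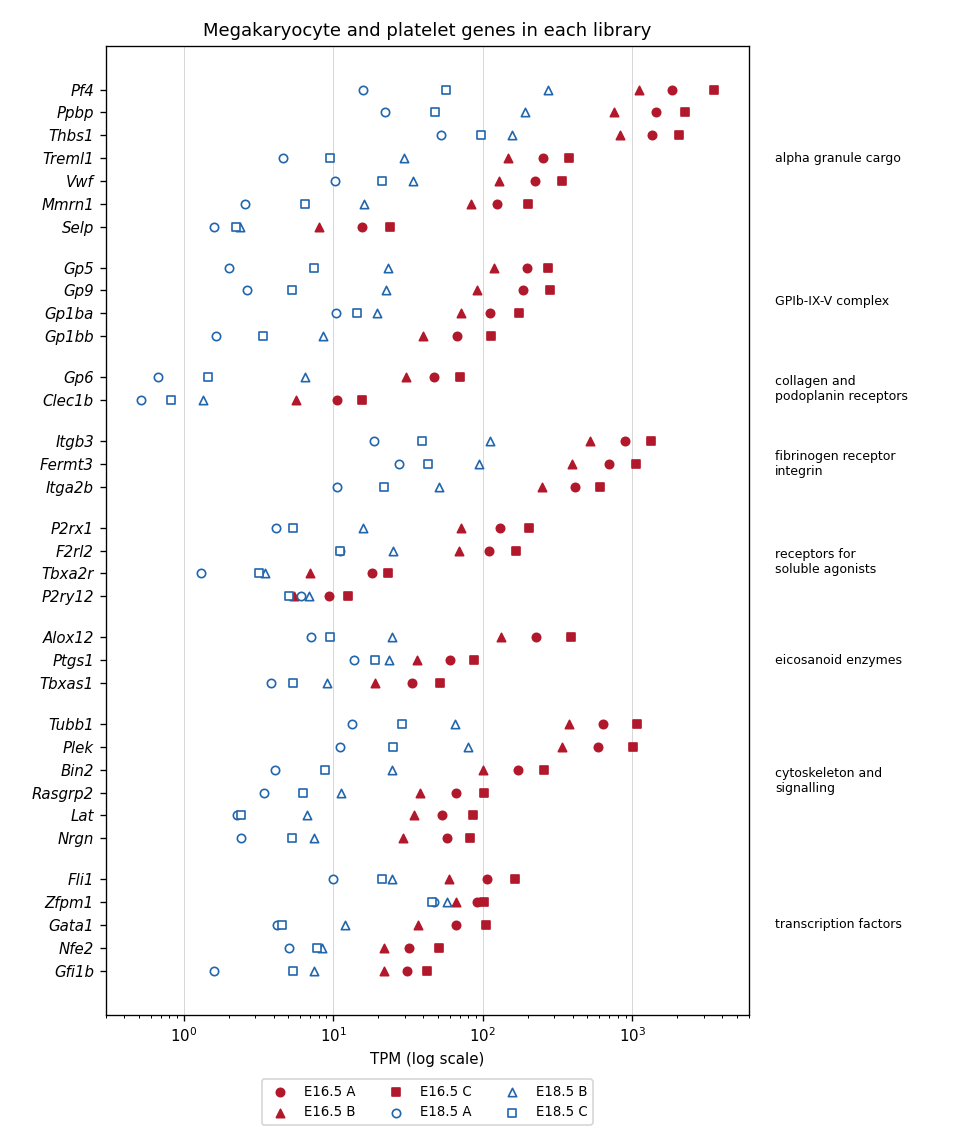
Level of each of the 34 genes in each library (horizontal axis, TPM on a log scale), grouped by role, with filled symbols for E16.5, open symbols for E18.5 and the shape giving the replicate. The E16.5 symbols lie to the right of the E18.5 symbols for every gene except P2ry12, and in each row E16.5 replicate C is highest and E16.5 replicate B lowest of the E16.5 libraries.

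Alpha granule cargo made up the largest part of the sum. Pf4, the chemokine CXCL4 that binds heparin, was at 1830, 1112 and 3505 TPM in the E16.5 replicates and at 15.8, 273 and 57.0 TPM at E18.5, both in the order A, B, C used for all values below. Its mean at E16.5 (2149 TPM ± 1228, SD, n = 3) ranked 23 among the 21819 protein-coding genes listed, and at E18.5 (115 TPM ± 138, SD, n = 3) it ranked 1005. The E18.5 value thus rested mostly on replicate B, and the log2 fold change of -4.90 ± 0.95 (SE) became -5.95 without that library. Ppbp, the precursor of the neutrophil-attracting CXCL7, was at 1444, 755 and 2259 TPM at E16.5 and at 22, 192 and 48.2 TPM at E18.5, a log2 fold change of -4.49 ± 0.76 (SE). Thbs1, the matrix protein thrombospondin 1, which endothelium also makes, was at 1359, 823 and 2061 TPM at E16.5 and at 52.4, 157 and 97.2 TPM at E18.5. Treml1, a receptor stored in alpha granules, was at 250.6, 148 and 379 TPM against 4.59, 29.7 and 9.48 TPM. In all 4 the libraries kept one order within each stage, C above A above B at E16.5 and B above C above A at E18.5. The remaining cargo genes were Vwf (von Willebrand factor), Mmrn1 (multimerin 1, a carrier of factor V) and Selp (P-selectin), with E16.5 means of 229, 136 and 15.8 TPM and E18.5 means of 21.8, 8.34 and 2.07 TPM. All 3 are also products of endothelial cells.

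The 4 genes of the GPIb-IX-V complex, the platelet receptor for von Willebrand factor, had means from 73.3 to 197 TPM at E16.5. Gp1ba, which encodes the ligand-binding chain, was at 111, 71.1 and 175 TPM at E16.5 and at 10.4, 19.7 and 14.5 TPM at E18.5. Gp5 was at 198, 119 and 274 TPM and then at 2.0, 23.2 and 7.40 TPM. Gp9 was at 186, 91.97 and 283 TPM and then at 2.66, 22.4 and 5.31 TPM. Gp1ba had the highest E18.5 mean of the 4 (14.8 TPM ± 4.65, SD, n = 3). The log2 fold changes of Gp1ba and Gp5, whose windows above each hold 3 GATA words, were -2.87 ± 0.35 and -4.47 ± 0.71 (SE). The Gp9 value in E18.5 replicate A rested on 16 reads, with a 95% exact Poisson interval from 1.52 to 4.31 TPM that covers counting error only. Gp1bb, the chain linked to Gp1ba by disulfide bonds, was at 67.0, 39.9 and 113 TPM and then at 1.63, 8.53 and 3.40 TPM. Its counts are uncertain, because 91.1% of its exon length is shared with Sept5 on the same strand.

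Gp6, which encodes the collagen receptor GPVI, was at 47.2, 30.7 and 70.7 TPM at E16.5 and at 0.669, 6.43 and 1.46 TPM at E18.5. Clec1b, which encodes CLEC-2, the receptor for podoplanin, was much lower, at 10.6, 5.63 and 15.5 TPM and then at 0.516, 1.34 and 0.820 TPM. These are the only 2 of the 34 genes below 1 TPM in any library. The E18.5 values of Clec1b stood on 18, 35 and 17 reads, all above the limit of 3 reads used for detection.

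Itgb3 and Itga2b, the β3 and αIIb chains of the fibrinogen receptor, were among the more abundant genes. Itgb3 was at 896, 517 and 1337 TPM at E16.5 and at 18.6, 111 and 39.4 TPM at E18.5. Itga2b, which encodes CD41, the usual surface marker of the lineage, was at 413, 248 and 610 TPM and then at 10.6, 50.5 and 21.9 TPM. Fermt3, the kindlin that activates the integrin and is also used by leukocytes, was at 692, 397 and 1064 TPM and then at 27.4, 94.3 and 43.1 TPM. Their log2 fold changes were -4.26 ± 0.63, -4.05 ± 0.55 and -3.76 ± 0.50 (SE), each within 1 SE of the next.

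The receptors for soluble agonists varied more. P2rx1, an ATP-gated channel, was at 130, 71.8 and 202 TPM at E16.5 and at 4.12, 15.7 and 5.35 TPM at E18.5. F2rl2, the thrombin receptor subunit PAR3, was at 110.0, 68.7 and 167 TPM and then at 11.04, 25.1 and 11.02 TPM. Tbxa2r, the thromboxane receptor, was at 18.1, 7.01 and 23.1 TPM and then at 1.30, 3.47 and 3.21 TPM. P2ry12, the ADP receptor blocked by clopidogrel, differed from the other 33 genes in that its stages overlapped. It was at 9.34, 5.49 and 12.5 TPM at E16.5 and at 6.09, 6.92 and 5.03 TPM at E18.5, and its log2 fold change was -0.47 ± 0.30 (SE).

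Of the enzymes of eicosanoid synthesis, Alox12, the platelet 12-lipoxygenase, was highest, at 227, 132 and 389 TPM at E16.5 and at 7.09, 24.9 and 9.52 TPM at E18.5. Ptgs1, the cyclooxygenase inhibited by aspirin, was at 59.8, 36.1 and 86.8 TPM and then at 13.7, 23.6 and 19.0 TPM. Tbxas1, thromboxane synthase, was at 33.7, 18.9 and 51.8 TPM and then at 3.81, 9.08 and 5.39 TPM. The difference between stages was smaller for Ptgs1 (log2 fold change -1.60 ± 0.33, SE) than for Alox12 (-4.13 ± 0.52, SE). All 3 are also expressed by leukocytes.

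Among genes of the cytoskeleton and of signalling, Tubb1, the β1-tubulin of the platelet marginal band, was at 638, 379 and 1073 TPM at E16.5 and at 13.3, 65.4 and 28.7 TPM at E18.5. Plek, which encodes pleckstrin, a main substrate of protein kinase C in platelets, was at 588, 340 and 1004 TPM and then at 11.01, 80.0 and 24.9 TPM. Bin2, a membrane-curving protein, was at 172, 99.4 and 258 TPM and then at 4.10, 24.7 and 8.76 TPM. Rasgrp2, the exchange factor that switches on RAP1 upstream of the integrin, was at 65.7, 38.2 and 101 TPM and then at 3.42, 11.2 and 6.22 TPM. The adaptor Lat and the calmodulin-binding Nrgn had E16.5 means of 57.8 and 56.2 TPM and E18.5 means of 3.77 and 5.03 TPM. All 6 genes had the same order of libraries within a stage as the granule cargo.

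The 5 transcription factors had means from 31.6 to 110.4 TPM at E16.5. Fli1, an ETS factor that endothelium also expresses, was at 107, 59.4 and 165 TPM at E16.5 and at 10.02, 24.6 and 21.3 TPM at E18.5. Gata1, the GATA factor shared by megakaryocytes and erythroid cells, was at 66.0, 36.6 and 105 TPM and then at 4.20, 11.96 and 4.55 TPM. Nfe2, a subunit of NF-E2 needed for platelet release, was at 32.0, 21.7 and 50.9 TPM and then at 5.09, 8.45 and 7.75 TPM. Zfpm1, which encodes FOG1, the partner of GATA1, stood apart from the other 4. It was at 91.6, 66.0 and 102 TPM and then at 47.4, 58.0 and 45.8 TPM, with a log2 fold change of -0.75 ± 0.19 (SE). Gfi1b, a repressor of the same lineages, averaged 31.6 TPM and then 4.79 TPM. The median log2 fold change was -2.48 over the 5 factors, -4.07 over the 7 cargo genes and -4.11 over the 4 genes of the GPIb-IX-V complex. The 16 genes that were put in no other cell type had a median log2 fold change of -4.00, the 9 shared with leukocytes -3.65, the 5 shared with endothelium -3.37 and the 4 shared with erythroid cells -2.35.

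The order of the libraries within a stage was not used to select the genes. At E16.5 all 34 genes were highest in replicate C, then A, then B, an order found in 14.3% of all genes tested. At E18.5, 31 of the 34 were highest in replicate B, then C, then A, an order found in 18.3% of all genes tested, and the exceptions were F2rl2, P2ry12 and Zfpm1. After median-of-ratios scaling between libraries the counts were 34 (22.3% of all genes) and 29 (12.5%), and the exceptions at E18.5 were Nfe2, P2ry12, Selp, Tbxa2r and Zfpm1. The 34 genes come from the same 6 libraries and are not independent of each other, so no test was made of these counts. Some orders at E18.5 also lie within counting error. Lat was at 2.27 TPM in A and 2.40 TPM in C, with overlapping 95% exact Poisson intervals (1.64 to 3.06 and 1.58 to 3.50 TPM). The exception F2rl2 was nearly level between A and C (11.04 and 11.02 TPM).

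The size of the differences within E16.5 was close to constant across the genes. The ratio of replicate C to replicate B had a median of 2.65 over the 34 genes, with quartiles of 2.43 and 2.83, whereas its median over all genes was 0.871 and 90% of all genes lay between 0.267 and 2.26. The lowest ratio was that of Zfpm1 (1.54) and the highest that of Tbxa2r (3.30). At E18.5 the spread was wide. The ratio of replicate B to replicate A had a median of 3.38, against 1.09 over all genes, and ran from 1.14 for P2ry12 to 17.3 for Pf4.

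**Figure D2:**
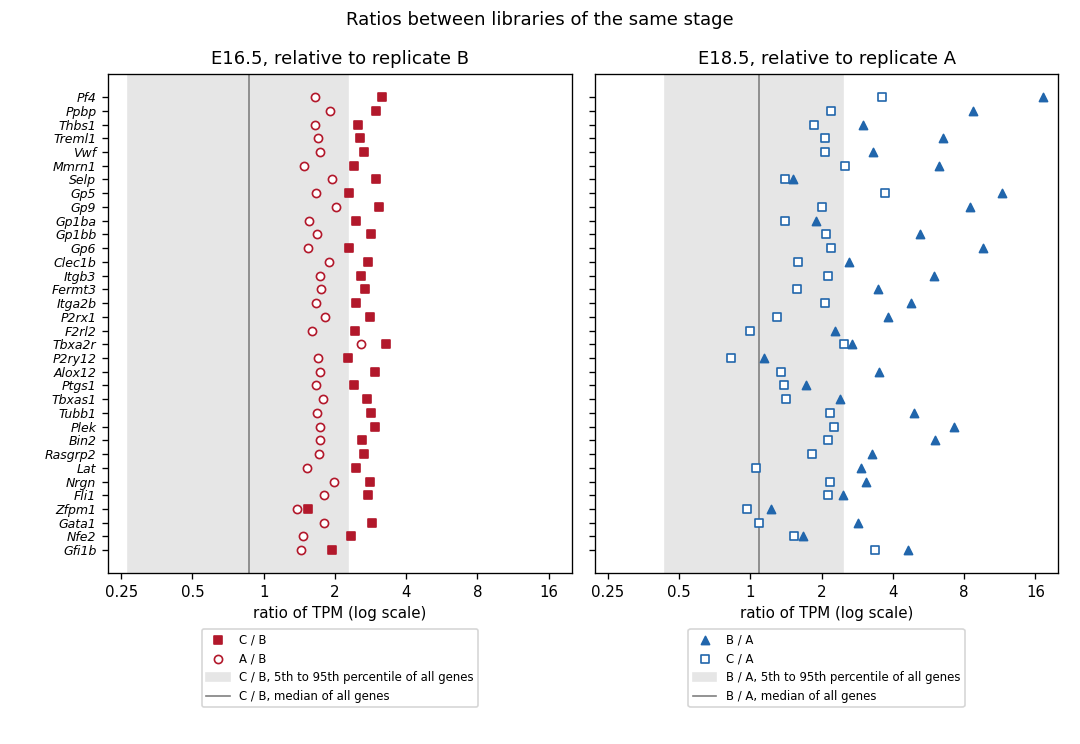
Ratio of TPM between libraries of the same stage for each of the 34 genes (horizontal axes, log scale), relative to replicate B at E16.5 and to replicate A at E18.5, with the grey band and line giving the 5th to 95th percentile and the median of all genes for the filled symbols. The C to B ratios at E16.5 fall in a narrow column around 2.65, while the B to A ratios at E18.5 spread from 1.14 to 17.3.

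Taken as shares of their own sum, the 34 genes had nearly the same make-up in the 3 E16.5 libraries, although the sum itself differed by a factor of 2.77 between replicates C and B. Pf4 held 17.7, 18.4 and 21.0% of the sum. Between any 2 E16.5 libraries, a gene's share differed by a median factor of 1.05 to 1.08, and at least 33 of the 34 genes were within a factor of 1.5. Of the E18.5 libraries, replicate B had the make-up nearest to this. Its median factor was 1.15 to 1.23 against the E16.5 libraries, and Pf4 held 18.8% of its sum. Only 25 or 26 of the 34 genes were within a factor of 1.5, however, and the largest factor, for P2ry12 or Zfpm1, was 5.23 to 6.55. In E18.5 replicates A and C, Pf4 held 4.71 and 9.53%, and the median factor against the E16.5 libraries was 1.75 to 1.86 for A and 1.61 to 1.70 for C. Zfpm1 went the other way and held 0.608 to 1.09% of the sum at E16.5, 3.98% in E18.5 replicate B, and 14.1 and 7.65% in E18.5 replicates A and C. The share of Zfpm1 was larger where the sum was lower, across all 6 libraries. This follows from how a share is computed, since Zfpm1 varied less between libraries (45.8 to 102 TPM) than the sum did (336 to 16710 TPM). The shares of P2ry12, Ptgs1 and Nfe2 rose in the same order of libraries.

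**Figure D3:**
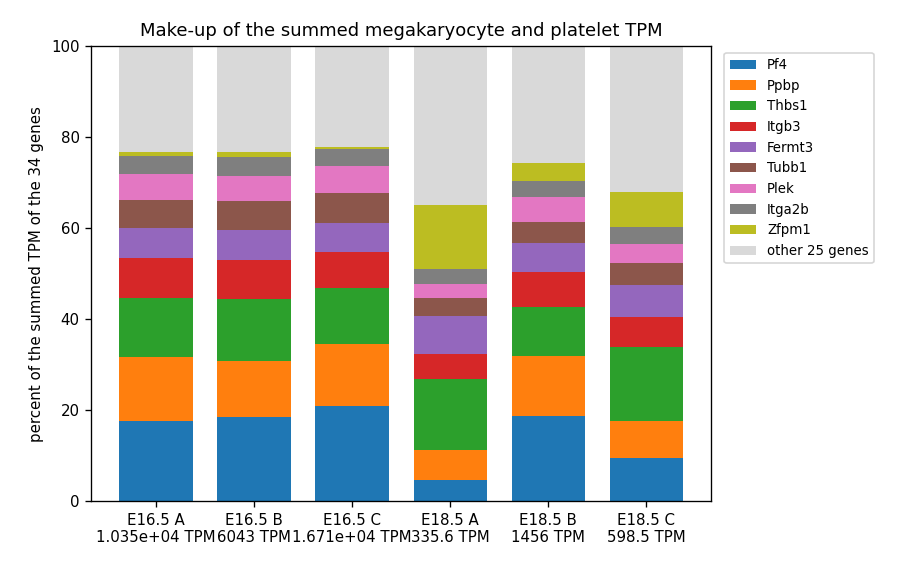
Share of the summed TPM of the 34 genes held by 9 of them and by the other 25 together (vertical axis, percent), with the sum itself under each library. The 3 E16.5 bars look alike. The bar of E18.5 replicate B is nearest to them but has more Zfpm1, while Pf4 is smaller and Zfpm1 larger still in E18.5 replicates A and C.

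The stage difference was therefore uneven between the E18.5 libraries. Against E18.5 replicate B alone, the E16.5 mean was higher by a median factor of 7.66 over the 34 genes, from 1.32 for P2ry12 to 10.65 for Tubb1, with quartiles of 4.92 and 8.47. Against E18.5 replicate A alone the median factor was 25.8, from 1.497 for P2ry12 to 136 for Pf4, with quartiles of 11.7 and 51.6. With replicate B left out, the log2 fold changes of the 34 genes ran from -5.95 to -0.57.

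Levels of other cell markers in the same libraries are given here because several of the 34 genes are shared with those cells, and their part in the results was not tested. The summed TPM of 14 erythroid markers was 317, 355 and 274 at E16.5 and 133, 662 and 182 at E18.5, again in the order A, B, C. It was thus highest in E18.5 replicate B, as the 34 genes were within that stage, and lowest at E16.5 in replicate C, where the 34 genes were highest. The most abundant erythroid gene, Hba-a1, stood at 113, 124 and 90.6 TPM and then at 28.3, 245 and 51.6 TPM. Of the 14, only Epor, the erythropoietin receptor, was lower at E18.5 past the threshold (log2 fold change -1.97 ± 0.40, SE, limma adjusted p = 0.0164), and none was higher. Without E18.5 replicate B, 4 of the 14 were lower. The 12 endothelial markers summed to 133 to 226 TPM at E16.5 and to 135 to 267 TPM at E18.5, and Emcn alone passed the threshold, on the higher side (1.10 ± 0.34, SE, limma adjusted p = 0.0480). Emcn lost this call with the replicate block (adjusted p = 0.0922), and the list had no gene higher past the threshold under any alternative except limma voom. Stab2 was the most abundant of them, at 15.4 to 50.9 TPM at E16.5 and 39.2 to 68.7 TPM at E18.5.

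Markers of leukocytes were low. The 11 myeloid markers summed to 103 to 135 TPM at E16.5 and to 113, 280 and 136 TPM at E18.5, 4 of the 10 tested were higher at E18.5 (beside 26.0% of all genes) and none lower, and Lyz2 was the most abundant at E16.5, at 59.9, 39.0 and 84.5 TPM. Itgam, which encodes the depleted antigen CD11b, stayed below 0.7 TPM in every library, and Cd5 below 1 TPM. Ly6g, which encodes the depleted antigen Ly-6G, was higher, at 0.371, 2.72 and 0 TPM at E16.5 and at 0.621, 1.25 and 1.57 TPM at E18.5. The 9 lymphoid markers summed to at most 31.1 TPM (2 of 7 tested higher, beside the same 26.0%), the 6 mast cell and basophil markers to at most 46.3 TPM (0 of 2 tested past the threshold), and the 6 stem and progenitor markers to 31.1 to 45.8 TPM (Hlf lower, of 5 tested). No marker of these lists was at 0 in all 6 libraries. The cholangiocyte markers, of which Spp1 was the most abundant, had their lowest sum of all in E16.5 replicate C (765 TPM, against 1980 and 2520 TPM in A and B). At E18.5 they summed to 11650, 13890 and 7995 TPM, and 8 of 10 were higher than at E16.5, beside 26.0% of all genes. Of the 8 hepatoblast markers 6 were lower at E18.5, beside 5.22% of all genes, with a median log2 fold change of -1.35. These counts changed with the processing. With one library left out, 1 (without E18.5 replicate A) to 8 of the 10 cholangiocyte markers were higher, and 3 without E18.5 replicate B. The hepatoblast count was 2 without E18.5 replicate A or without any one of the E16.5 libraries. The myeloid count fell to 1 or 2 whichever library was left out, and the lymphoid count to 0 or 1. Under median-of-ratios scaling 4 cholangiocyte markers were higher and 5 hepatoblast markers lower, the myeloid and endothelial lists each had 1 gene lower and 0 higher, and the lymphoid list had 0 past the threshold. With that scaling 3818 of all 22301 genes tested passed the threshold, and 38.0% of these were higher.

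**Figure D4:**
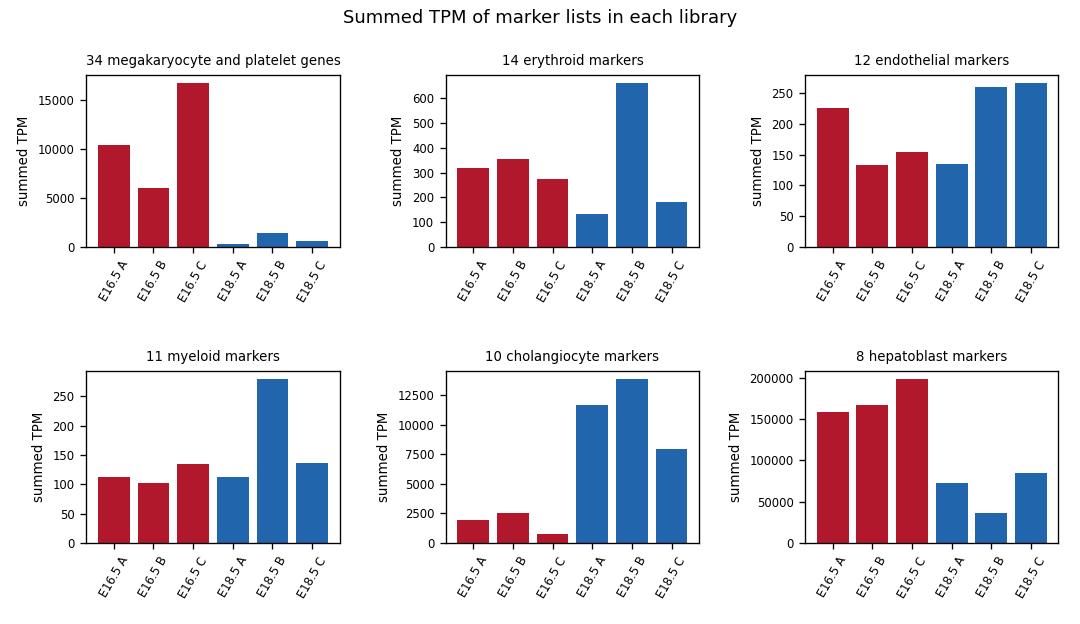
Summed TPM in each library (vertical axes from 0, each panel with its own scale) of the 34 megakaryocyte and platelet genes and of 5 lists of cell type markers, red for E16.5 and blue for E18.5. The 34 genes peak in E16.5 replicate C at 16710 TPM, as does the hepatoblast list at 198700 TPM. The erythroid, myeloid and cholangiocyte lists peak in E18.5 replicate B at 662, 280 and 13890 TPM, and the endothelial list peaks in E18.5 replicate C at 267 TPM.

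A further 79 genes of the platelet and thrombopoietin pathway, listed by textbook role and not among the 34, were read for comparison. They were chosen with the pattern of the 34 already known. By limma, 52 were lower and 7 higher at E18.5 at an adjusted p under 0.05, beside 5.22% and 26.0% of all genes, and the median log2 fold change was -1.20. The order C, A, B at E16.5 was shown by 65 of the 79 and the order B, C, A at E18.5 by 39. Among the 20 that did not pass the threshold were the calcium sensor Stim1 (0.01 ± 0.13, SE) and the G protein subunit Gnaq (-0.07 ± 0.16, SE).

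In the thrombopoietin axis, Thpo, which encodes the hormone and is expressed by hepatocytes, was at 14.7, 16.1 and 20.8 TPM at E16.5 and at 6.45, 4.69 and 5.63 TPM at E18.5 (log2 fold change -1.46 ± 0.20, SE, limma adjusted p = 0.0089), and its libraries followed the order C, B, A and then A, C, B. Jak2, a kinase of cytokine signalling, was lower (-0.79 ± 0.25, SE, limma adjusted p = 0.0489) but lost this call with the replicate block (adjusted p = 0.0889), while Stat5a (-0.27 ± 0.19, SE) and Stat5b (-0.14 ± 0.11, SE) did not pass the threshold.

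Rgs18, Cd226, Slamf1 and Slc35d3 were among the 5 genes of this list with the largest falls past the threshold. Rgs18, a brake on G protein signalling in platelets, was at 228, 138 and 387 TPM at E16.5 and at 3.02, 31.6 and 9.58 TPM at E18.5 (log2 fold change -4.37 ± 0.74, SE, limma adjusted p = 0.0118). The log2 fold change was -4.02 ± 0.49 (SE) for the adhesion receptor Cd226, -3.80 ± 0.50 (SE) for Slamf1, a receptor also found on stem cells and lymphocytes, and -3.72 ± 0.56 (SE) for Slc35d3, which is needed for dense granules. The limma adjusted p of these 4 ranged from 0.0082 to 0.0118.

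By role, 12 of the 13 other agonist and inhibitory receptors were lower, among them F2rl3, the thrombin receptor PAR4 (-3.54 ± 0.54, SE), and Ptgir, the prostacyclin receptor (-3.33 ± 0.41, SE). Of 17 genes of integrin activation and signalling 13 were lower, and of 10 cytoskeletal genes 9. Of 16 granule genes 8 were lower and 3 higher. Of 10 transcription factors 4 were lower, namely Runx1, Tal1, Lmo2 and Mef2c, and 2 higher. Of 8 adhesion and surface genes 3 were lower and 2 higher.

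The 5 largest rises were those of Clu (1.93 ± 0.29, SE), Jam3 (1.77 ± 0.21), Sparc (1.22 ± 0.33), Cd36 (1.20 ± 0.31) and Ldb1 (0.99 ± 0.20) on the log2 scale, with limma adjusted p from 0.0081 to 0.0337. Clu, the secreted chaperone clusterin, is carried in platelet granules and is also made by many epithelia, and it was at 822, 937 and 453 TPM at E16.5 and at 2796, 3104 and 2219 TPM at E18.5. Its lowest library was E16.5 replicate C, where the 34 genes were highest. Under median-of-ratios scaling 58 of the 79 were lower and 2 higher, and Sparc, Cd36 and Ldb1 no longer passed the threshold. The background also changed with this scaling, where 3818 of 22301 genes passed the threshold and 38.0% of these were higher. Cd36 also lost its call with the replicate block (adjusted p = 0.0646).

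**Figure D5:**
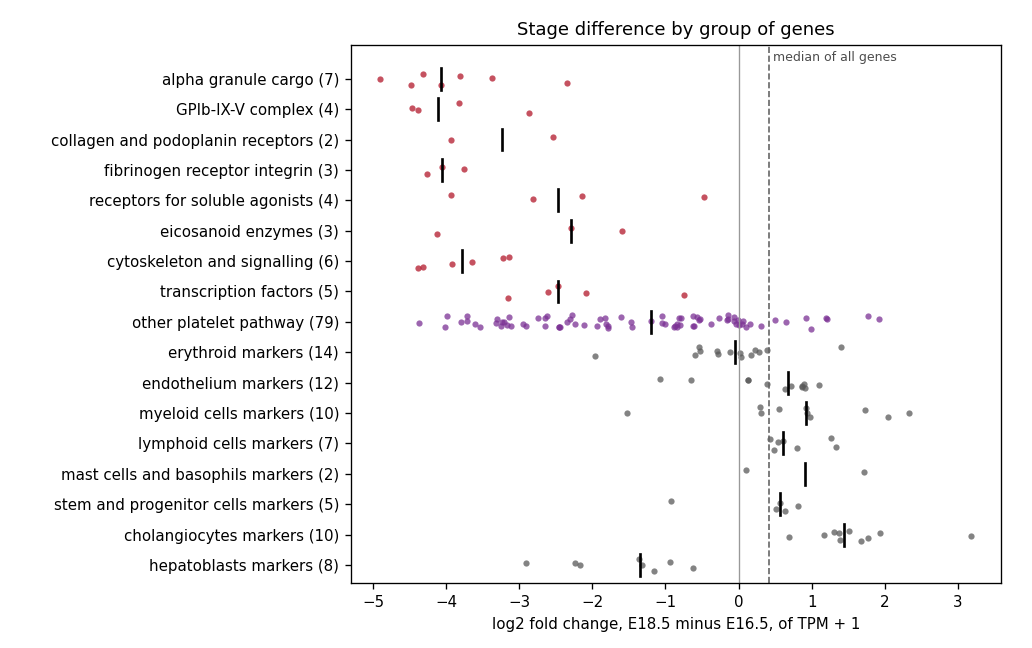
Log2 fold change of TPM + 1 between stages (horizontal axis, E18.5 minus E16.5) for each gene, with the 34 genes by role in red, the 79 other platelet pathway genes in purple and marker lists of other cells in grey, black bars for medians and a dashed line for the median of all genes (0.42). The red points belong to a list that was picked for its fall at E18.5, while the grey erythroid points centre on -0.05 and the cholangiocyte points on 1.45.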

How the data were processed

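The authors checked reads with FastQC 0.11.7, trimmed them with Trimmomatic, mapped them to GRCm38 with HISAT2 2.1.0 and ran HTSeq-count 0.5.4p3 on a GENCODE annotation, then turned the gene counts into TPM. These TPM are what was deposited, and each library sums to 1000000. A stranded kit was used, but how HTSeq-count treated strand is not given in the sources used here. All 6 columns were used. The 34 genes and the comparison lists were chosen with earlier results of these data known.

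Reads were recovered as TPM times the exon length in a later GENCODE release, divided by the value of 1 read, and were whole within 0.01 for 100% of nonzero values of genes with an unchanged identifier version. Reads could be given for 31 of the 34 genes, all but Gp1bb, Gp5 and Fermt3. Replicates of a stage differed by more than sampling noise (chi-square per degree of freedom of at least 17.1), so none was a copy.

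E18.5 was set against E16.5 by limma 3.58.1 (R 4.3.3, empirical Bayes with trend, two-sided, Benjamini-Hochberg, threshold 0.05) on log2(TPM + 1), in the 22452 genes that averaged 1 TPM or more. A fold change on this scale understates the change of low genes. The fit was tested on simulated data. Full values per library are given for every gene of role groups of up to 4 and for the 4 most abundant at E16.5 in larger groups. Of the 79 other pathway genes, they are given for Thpo and for some of the 5 largest changes in each direction. Stim1, Gnaq, F2rl3, Ptgir, Epor, Emcn, Itgam, Cd5 and Hlf were named after their values were seen. Of the exon length of the genes other than Gp1bb, at most 9.93% overlapped another gene. Intervals of single libraries are 95% exact Poisson intervals. Ratios between libraries used the tested genes that were above 0 in the library divided by. The alternatives were a pseudocount of 0.1, no filter, a minimum average of 5 TPM, median-of-ratios scaling, limma voom on recovered reads, a block for the replicate letters, and each library left out once. The scaling of the library order was chosen after seeing the data. Protein sequences were not used here, and results for some single genes are not reported here.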

Additional observations from a re-analysis of the deposited data

How the results depend on the processing

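Of 405 fold changes of the 34 genes under 12 alternatives, 396 kept their direction and side of the threshold, 9 kept the direction only (those of Zfpm1, Tbxa2r or Ptgs1), and 0 reversed. Over all genes, 7000 passed the threshold, 4282 without a filter on low values, 3818 under median-of-ratios scaling, and 1472 (without E18.5 replicate A) to 5686 (without E18.5 replicate C) with one library left out, including 2917 without E18.5 replicate B, 4082 without E16.5 replicate C and 4376 without E16.5 replicate A. Median-of-ratios scaling brought the median log2 fold change of all genes from 0.42 to 0.004 and the share of calls that were higher from 83.3% to 38.0%. Among the 34 genes, 30 to 33 were lower past the threshold with one library left out, 30 of 31 in limma voom, and their median log2 fold change stayed between -4.13 and -3.37 over all alternatives. Of the 79 other pathway genes, the 52 lower became 32 to 55 with one library left out, the lowest without E18.5 replicate A. The 7 higher became 3 without a filter, 2 under median-of-ratios scaling, and 2 to 5 with one library left out (2 without E18.5 replicate A or B, 4 without E16.5 replicate B or E18.5 replicate C). The cause was not tested. Of 192 counts of markers under the alternatives, 51 changed.

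Whether the replicate letters pair the samples was not settled. The correlation of deviations from the stage means was -0.04 for A, 0.08 for B and 0.14 for C. The value for C was the highest of all pairs of letters, but not every sample correlated best with its own letter. With the replicate block, 7314 genes passed the threshold (7000 without it), 32 of the 34 genes and 45 lower and 6 higher of the 79. Depth limits the lowest values at E18.5, where Gp9, Tbxa2r and Clec1b rested on 16 to 18 reads in replicate A.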

Other observations

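Of the 11 myeloid markers, 7 were highest at E18.5 in replicate B, and of the 6 mast cell and basophil markers 2 were. This was not particular to myeloid markers. So were 13 of 14 erythroid, 7 of 10 cholangiocyte, 6 of 9 lymphoid and 3 of 6 stem and progenitor markers, 4 of 12 endothelial and 0 of 8 hepatoblast markers. The share over all genes was not counted. Ly6g, Hdc and Cpa3 were among the myeloid, mast cell and basophil markers that were not highest in replicate B. Mpo, the myeloperoxidase of neutrophil precursors, was at 7.52 TPM in replicate A, 45.7 in B and 11.8 in C of that stage, and Elane, neutrophil elastase, was at 1.19, 18.3 and 2.002 TPM. S100a8 was at 15.8, 53.3 and 13.5 TPM, and Prg2, the major basic protein of eosinophils, at 5.58, 42.7 and 0.588 TPM. At E16.5 the highest values of these genes were 15.8, 2.48, 7.06 and 2.75 TPM. These 7 genes were named after their values were seen.

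Pecam1 and Tie1, counted here as endothelial although Pecam1 is also on platelets, had the E16.5 order of the 34 genes. Pecam1 was at 30.8, 15.5 and 33.2 TPM at E16.5 and at 9.48, 19.1 and 21.4 TPM at E18.5, and Tie1 at 29.1, 16.8 and 36.2 TPM and then at 7.52, 14.6 and 15.1 TPM. None of the other 10 endothelial markers had that order at E16.5. Cxcl5, the chemokine gene next to Ppbp and Pf4, was at 5.88, 3.72 and 11.3 TPM at E16.5 and at 0, 0.525 and 0.132 TPM at E18.5, and its E16.5 order was that of its 2 neighbours. Cxcl3, also in this cluster, stayed below 0.6 TPM in every library.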
